A study of Mus musculus with 9 samples.

Results

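The mitochondrial genome of the mouse was read out in bone marrow through 37 rows of the count table, of 53172 rows in all. The rows were chosen by their name alone, as every row whose gene name starts with mt-, so no measured value decided which gene entered; the set as a whole was picked for description with earlier results of these data known, and its counts of changed genes are therefore not independent support for a change. They comprise 13 protein-coding genes, 2 rRNA genes and 22 tRNA genes. By respiratory complex, 7 of the protein-coding genes belong to complex I, 1 to complex III, 3 to complex IV and 2 to the ATP synthase.

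RNA-seq was carried out on marrow of 9 mice in 3 groups of 3, to ask how the marrow of recipients of cartilage cells compares with that of recipients of marrow cells and with normal marrow. BMT and CDSCs mice were 16-week-old wild-type CD45.2 C57BL/6J recipients that had received 9.5 Gy of whole-body irradiation, in a split dose, on the day before transplantation. BMT mice then received 500000 bone marrow cells of CD45.1 or ZsGreen donors, and CDSCs mice 500000 cells freed by collagenase from the costal cartilage of CD45.1 or ZsGreen neonates, a preparation named isoCDSCs in the study and not sorted further. Health mice were age-matched normal mice, and marrow was taken 2 weeks after transplantation. The study's methods state that CD45+ and CD45− cells were split on beads, equal amounts of each were sequenced, and the data were merged after their depths had been made equal, whereas the labels speak of all marrow cells, so that the values need not follow the natural mixture of cells in marrow. In such bulk RNA, fewer cells of a type and less RNA per cell cannot be told apart. The labels number the mice within each group, and p-values measure the spread between these mice.

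Mitochondrial DNA is a small circle that is present in many copies per cell. It is transcribed from both strands as long precursors that span many genes, and the precursors are cut into single RNAs mainly at the tRNAs that stand between the other genes. Its protein-coding genes give subunits of the respiratory chain and of the ATP synthase, which are built together with a larger number of nuclear-encoded subunits, and its 12S and 16S rRNAs, mt-Rnr1 and mt-Rnr2, form the core of the mitochondrial ribosome that translates them. In marrow, resting stem cells are known to lean on glycolysis, whereas differentiating blood cells and red cell precursors use oxidative phosphorylation.

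Genes were placed on GRCm38 with the GENCODE release 21 annotation. They lie between chrM:1-68, mt-Tf, and chrM:15356-15422, mt-Tp. On the minus strand stand 9 of the 37 genes, namely mt-Nd6 and 8 tRNA genes. For all 34 rows with a count, the length implied by the ratio of count to TPM was within 0.5 bases of the annotated length. Several members have a near-identical copy in the nuclear genome, which limits what their counts mean: over a chain of 7 annotated pseudogenes on the minus strand of chromosome 1 (chr1:24611535-24616197), the copies of mt-Co2, mt-Atp6, mt-Co3 and mt-Nd4l carried no base difference over the 294 to 783 bases aligned, which left out at most 3 bases of each gene, that of mt-Nd3 carried 1, and that of mt-Nd4, which spans its first 876 of 1378 bases, carried 0. The copy of mt-Co1 in this chain covers its last 492 of 1545 bases, and Gm13340 on chromosome 2 shares 852 of its bases in stretches of at least 50. In such stretches of nuclear transcripts, 74.9% of the bases of mt-Co1 were found, 63.6% of mt-Nd4, 24.3% of mt-Nd5, 17.2% of mt-Nd2 and 4.11% of mt-Rnr2. Of mt-Nd1, mt-Nd6, mt-Cytb, mt-Rnr1 and mt-Atp8, 0 bases were found. mt-Atp8 stands between mt-Co2 and mt-Atp6, and the stretch between the copies of its neighbours was 233 bases long against 230 bases in the mitochondrial genome. The sequence of that stretch was not compared with mt-Atp8.

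The start of the mt-Co1 copy and the start of the mt-Co3 copy are shown because they mark where the nuclear sequence does and does not differ. mt-Co1 is given from base 1054 to base 1113 of the gene (chrM:6381-6440, plus strand) and its copy Gm29216 from base 1 to base 60 (chr1:24616138-24616197, minus strand), with the 6 differing bases in capitals. mt-Co3 is given from base 1 to base 60 (chrM:8607-8666, plus strand), beside its copy Gm28437 (chr1:24613912-24613971, minus strand).
mt-Co1: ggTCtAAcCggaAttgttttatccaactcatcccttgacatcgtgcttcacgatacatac
Gm29216: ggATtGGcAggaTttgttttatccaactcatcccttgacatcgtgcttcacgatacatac
mt-Co3: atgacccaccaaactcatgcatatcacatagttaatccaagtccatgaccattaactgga
Gm28437: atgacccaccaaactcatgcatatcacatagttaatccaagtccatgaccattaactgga

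All 6 differences of the mt-Co1 pair fell within the first 13 bases of the copy, and from there to the end of the gene the pair was identical. A read that lies wholly within an identical stretch cannot be assigned to 1 of the copies by its sequence, and how the authors treated such reads is not given in the sources used here. The 7 pseudogene rows held 0 to 8 counts over the 9 mice. Values of mt-Co2, mt-Atp8, mt-Atp6, mt-Co3, mt-Nd3 and mt-Nd4l are therefore uncertain in level, and parts of mt-Co1, mt-Nd4, mt-Nd5, mt-Nd2 and mt-Rnr2 share the limit.

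Between 8741155 and 10181289 counts were recorded per mouse, and the ranges of the 3 groups overlapped. The mitochondrial rows held 368712 to 693570 of these counts. The row with the largest share among nuclear genes, Olfr648, took 1.90% to 5.70% of the counts and varied within each group. Rows of several genes that define marrow cells (S100a8 and Camp of neutrophils, Hbb-bs and Alas2 of red cells) were at 0 in all 9 mice. Nuclear rows are therefore given as the table names them, and whether those names are right was not tested. Among the 13 neutrophil markers, 4 rows were at 0 and the summed level was 2485 to 4128 CPM in Health, 1817 to 3991 CPM in BMT and 414 to 819 CPM in CDSCs mice, most of it on Mmp8, a granule collagenase. The sum was lower in every CDSCs mouse, where mitochondrial counts were higher, but it follows Mmp8. Of the 3 listed genes tested, 0 were higher and 1 lower in CDSCs than in BMT, with a median log2 fold change of -1.51, and 1 was higher and 1 lower in CDSCs than in Health, with a median of 0.15. The part of these cells in the results was not tested. Of 80 markers on 7 lists (red cells, neutrophils, B cells, T cells, skeletal muscle, cartilage and stromal niche), 22 were at 0 in all mice and 31 were tested, with 0 higher and 1 lower in CDSCs than in BMT, 3 higher and 4 lower in CDSCs than in Health, and 2 higher and 0 lower in BMT than in Health. Of all genes tested, 0.326% and 0.7%, 8.69% and 8.28%, and 0.994% and 1.45% were called higher and lower in these comparisons.

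Levels per length, in TPM, ranged over the protein-coding members from 14.5 to 41901 as means of the 9 mice. mt-Co1, the catalytic core subunit of complex IV, was the most abundant member, with a mean of 41901 TPM over the 9 mice (30982 to 62028 TPM). Cytochrome b, mt-Cytb, came next with 11324 TPM (8199.7 to 15859 TPM), followed by mt-Nd1 with 9114 TPM. The ranges over mice of mt-Cytb and mt-Nd1 overlapped. mt-Nd5, mt-Nd2 and mt-Nd4 followed at 4377, 4355 and 4026 TPM with overlapping ranges, then the large rRNA mt-Rnr2 at 3173 TPM, mt-Nd6 at 2862 TPM, the tRNA mt-Tp at 2570.0 TPM and the small rRNA mt-Rnr1 at 2440.2 TPM. The members with an identical or, for mt-Nd3, near-identical nuclear copy over nearly their whole length lay far below: mt-Co2 at 302 TPM, mt-Atp6 at 203 TPM, mt-Co3 at 154 TPM, mt-Nd4l at 110.1 TPM and mt-Nd3 at 90.5 TPM. mt-Nd4, with an identical copy of its first 876 bases, and mt-Co1, with 74.9% of its bases shared, did not lie low. mt-Atp8 was the lowest protein-coding row, at 14.5 TPM and a mean of 13 counts per mouse. This order over all 9 mice was not that of each group. In Health, the means of mt-Rnr2 (4942 TPM) and mt-Rnr1 (3479 TPM) stood above those of mt-Nd5 (3267 TPM), mt-Nd4 (3201 TPM) and mt-Nd2 (3094 TPM), whereas in CDSCs mice mt-Rnr2 (1998 TPM) stood below mt-Nd6 (3859 TPM) and mt-Tp (3608 TPM). Genes of the same precursor thus stood far apart in level, as did mt-Co1 and mt-Co2. In each mouse, mt-Co2 had 0.00273 to 0.00424 counts per mt-Co1 count. Whether nuclear copies set these low levels was not tested.

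**Figure D1:**
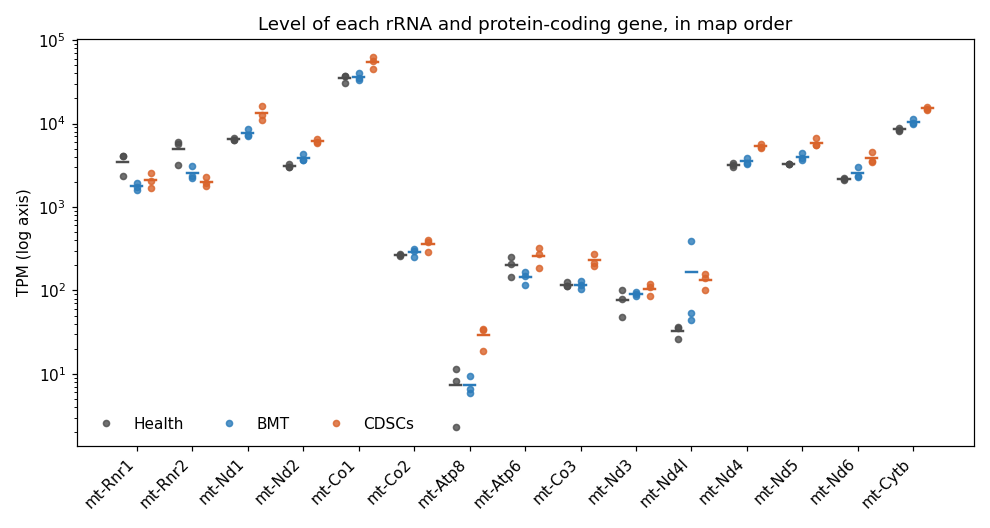
TPM of the 2 rRNA and 13 protein-coding genes in map order on a log axis, with 1 point per mouse and a line at the group mean (n = 3). The CDSCs points of mt-Cytb (14665 to 15859 TPM) lie above all Health and BMT points, whereas both rRNAs have their highest mean in Health.

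Mitochondrial rows took a larger part of the counts in CDSCs mice than in either other group. They held 4.84, 4.88 and 3.95% of all counts in the Health mice, 4.23, 4.35 and 5.12% in the BMT mice and 6.25, 7.15 and 7.01% in the CDSCs mice. Each CDSCs mouse stood above every BMT and Health mouse, while BMT and Health overlapped. The mean was 6.80% ± 0.487 (SD, n = 3) in CDSCs, 4.57% ± 0.482 in BMT and 4.56% ± 0.527 in Health mice. CDSCs exceeded BMT by 2.24 percentage points and Health by 2.25 percentage points, each with p = 0.1 in an exact two-sided permutation test (adjusted p = 0.15 over 3 comparisons), which is the smallest p that 3 against 3 mice can give. BMT and Health differed by 0.00948 percentage points (exact permutation p = 1). The 95% Wilson intervals of these shares were at most 0.0339 points wide and cover counting error only. Without mt-Co1 the differences were 0.920 and 0.913 percentage points, and without the members with a copy on chromosome 1, 0.792 and 0.768. The total is that of the rows in the table, so the share depends on what was counted there.

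**Figure D2:**
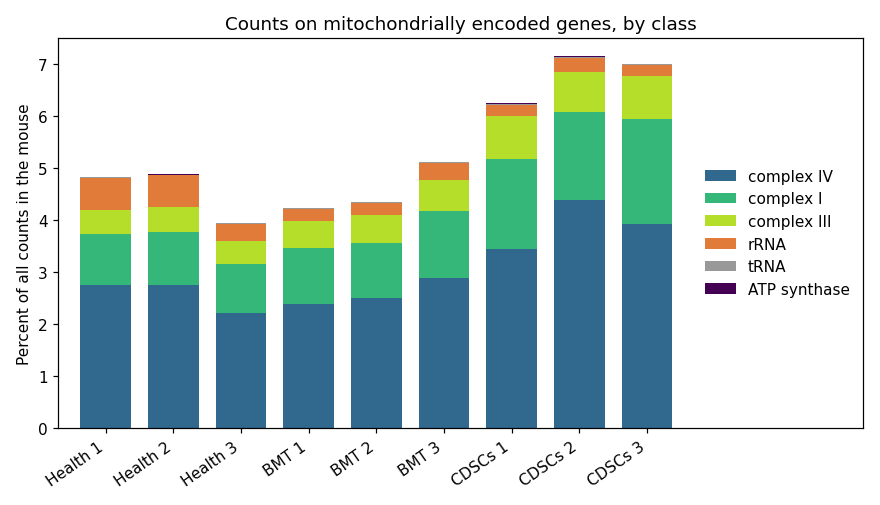
Stacked bars of the percent of all counts on mitochondrially encoded genes in each of the 9 mice, split into complex I, III and IV, ATP synthase, rRNA and tRNA genes. The CDSCs bars reach 6.25% to 7.15%, above the 3.95% to 5.12% of the other mice, and the rRNA block is widest in Health.

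Differences of single genes were tested with edgeR's quasi-likelihood test on the 12572 genes of the table that passed its filter on low counts, with Benjamini-Hochberg adjustment over all of them. The filter kept 23 of the 37 members: all 13 protein-coding genes, both rRNAs and 8 tRNAs. Levels are counts per 1000000 after TMM scaling (CPM below), and a call means an adjusted p under 0.05. Against BMT, 3 members were higher in CDSCs mice (mt-Nd1, mt-Nd2 and mt-Co3) and 0 lower, beside 0.326% of all genes tested called higher and 0.7% called lower. The unadjusted p was under 0.05 for 13 members. The median log2 fold change was 0.42 over the 23 members and 0.01 over all genes tested. In 14 of the 23 the mice of both groups did not overlap, against 22.5% of all genes tested. mt-Atp8, which passed the filter on low counts only through the CDSCs mice and so had to differ, is among the 14 and the 13.

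Against Health, 8 members were higher in CDSCs mice (mt-Nd1, mt-Nd2, mt-Nd4, mt-Nd5, mt-Nd6, mt-Cytb, mt-Co3 and mt-Atp8) and 2 lower (mt-Rnr1 and mt-Rnr2). mt-Atp8 passed the filter on low counts only through the CDSCs mice, so that it had to differ, and 7 remain without it. Of all genes tested, 8.69% were called higher and 8.28% lower. The median log2 fold change was 0.54 over the members and -0.02 over all genes tested. The groups did not overlap in 17 members, against 34.2% of all genes tested. These 17 include mt-Atp8 and mt-Te, which both passed the filter only through the CDSCs mice, so that their separation is no support. mt-Te had 3, 7 and 9 counts in the Health mice, 13, 5 and 13 in the BMT mice and 16, 12 and 12 in the CDSCs mice. BMT against Health gave 0 members higher and 1 lower, mt-Rnr1, beside 0.994% and 1.45% of all genes tested. There, 5 members had an unadjusted p under 0.05, the median was 0.13 against -0.02 over all genes, and 7 members did not overlap, against 29.1% of all genes tested. CDSCs and BMT share the Health mice as controls, so that both comparisons with Health move together with any deviation of these 3 mice, and CDSCs against BMT and CDSCs against Health likewise share the CDSCs mice.

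The count of members called between CDSCs and BMT changed with the mice in the fit. Without Health replicate 1, BMT replicate 1, BMT replicate 2 or CDSCs replicate 2, 0 members were called. Over all genes tested these fits made 40, 2, 19 and 39 calls, against 129 with all mice. Without Health replicate 2 or BMT replicate 3, 1 was called, without Health replicate 3 or CDSCs replicate 3, 3 were called, and without CDSCs replicate 1, 5 were called. Over all genes tested these fits made 41, 73, 102, 491 and 149 calls, in that order. DESeq2 called 11 members higher, and over all 12572 genes tested it made 706 calls against 129 by edgeR. The 11 were mt-Nd1, mt-Nd2, mt-Nd4, mt-Nd5, mt-Nd6, mt-Cytb, mt-Co1, mt-Co3, mt-Atp6, mt-Atp8 and mt-Tp. A likelihood ratio test and a fit with no filter on low counts called the same 11, with 730 and 1260 calls over all genes. Scaling to the mitochondrial total in place of TMM, which moves the median of all genes to -0.58, left 0 members called higher and 2 lower, mt-Rnr2 and mt-Tw. Against Health, the same scaling, which moves the median of all genes to -0.54, ended the 8 higher calls and kept both lower ones. Over all genes this scaling made 4274 calls against BMT and 4511 against Health, where TMM gave 129 and 2134.

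**Figure D3:**
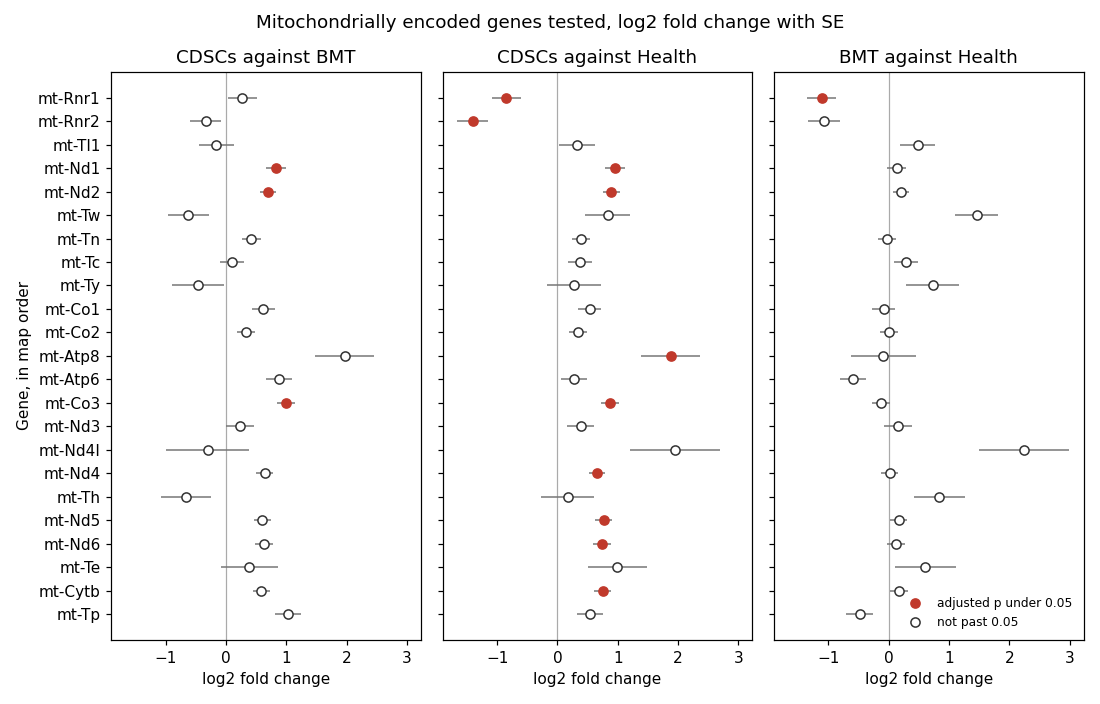
Log2 fold change with its SE for the 23 members tested, in map order, in the 3 comparisons. Filled points passed an adjusted p of 0.05: 3 in CDSCs against BMT, 10 in CDSCs against Health and 1 in BMT against Health.

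Complex I takes electrons from NADH, and its 7 mitochondrial subunits, mt-Nd1 to mt-Nd6 and mt-Nd4l, build the proton-pumping arm in the inner membrane. Against Health, 5 of the 7 rose in CDSCs mice, and against BMT, 2 rose, beside 8.69% and 0.326% of all genes tested. mt-Nd1, the subunit next to the site where ubiquinone binds, was at 3053, 3258 and 2727 CPM in the Health mice, 3161, 3139 and 3582 in the BMT mice and 5194, 5372 and 6960.5 in the CDSCs mice. All CDSCs mice stood above all others. It rose 1.94-fold against Health (log2 fold change 0.96, SE 0.16, adjusted p = 0.00476) and 1.77-fold against BMT (log2 fold change 0.83, SE 0.16, adjusted p = 0.0493). The second call was kept in 2 of 9 fits that left out 1 mouse (without CDSCs replicate 1 and without CDSCs replicate 3), with adjusted p from 0.0284 to 0.210; the first was kept in all 9. mt-Nd2 was at 1591, 1699 and 1424 CPM in the Health mice, 1705, 1759.7 and 1961 in the BMT mice and 2946, 2769.7 and 3058 in the CDSCs mice. Again the CDSCs mice did not overlap with the others, and the SDs were 139 CPM in Health, 135 in BMT and 145 in CDSCs. It rose 1.86-fold against Health (log2 fold change 0.90, SE 0.13, adjusted p = 0.00262) and 1.62-fold against BMT (log2 fold change 0.69, SE 0.13, adjusted p = 0.0477), and the latter call was kept only without Health replicate 3, CDSCs replicate 1 or CDSCs replicate 3, with adjusted p up to 0.214.

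mt-Nd4 and mt-Nd5, both antiporter-like subunits of the pumping arm, rose against Health and missed the threshold against BMT, where DESeq2, the likelihood ratio test and the fit with no filter called both. mt-Nd5 was at 3055, 2995 and 2691 CPM in the Health mice, 3126, 3065 and 3601 in the BMT mice and 4879.9, 4520.1 and 5471 in the CDSCs mice. The CDSCs mice lay above all others, and BMT above Health. The log2 fold change of CDSCs was 0.77 (SE 0.15, adjusted p = 0.00730) against Health and 0.60 (SE 0.14, adjusted p = 0.0809) against BMT. mt-Nd4 was at 2222, 2349.7 and 1909 CPM in the Health mice, 2005, 2181 and 2381 in the BMT mice and 3418, 3245 and 3551 in the CDSCs mice. CDSCs did not overlap with the other groups, while BMT and Health did. Its log2 fold change was 0.66 (SE 0.14, adjusted p = 0.0126) against Health and 0.64 (SE 0.14, adjusted p = 0.0639) against BMT.

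mt-Nd6, the sole protein-coding gene read from the other strand, was at 589, 566 and 498 CPM in the Health mice, 554, 554 and 687 in the BMT mice and 903, 802 and 1064 in the CDSCs mice. It stood highest in all 3 CDSCs mice and rose against Health (log2 fold change 0.74, SE 0.15, adjusted p = 0.0106), with 0.63 (SE 0.15, adjusted p = 0.0852) against BMT. Its end overlaps the end of mt-Nd5 by 14 bases, and the counts held a close ratio to those of mt-Nd5, of 0.177 to 0.195 in the 9 mice. Whether reads were counted by strand is not given in the sources used here, so reads of mt-Nd6 and of the opposite strand cannot be told apart.

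The small subunits mt-Nd3 and mt-Nd4l, both with a nuclear copy, did not pass in any comparison. mt-Nd3 was at 14.1, 8.41 and 15.9 CPM in the Health mice, 15.1, 13.9 and 13.9 in the BMT mice and 14.6, 16.97 and 18.6 in the CDSCs mice, and the groups overlapped on this scale. mt-Nd4l had 33, 50 and 47 counts in the Health mice, 54, 529 and 74 in the BMT mice and 209, 133 and 183 in the CDSCs mice. Here BMT replicate 2 stood far above the other 2 BMT mice, at 0.0251 counts per count of mt-Nd4, with which it shares 7 bases, against 0.00292 and 0.00297. All CDSCs mice lay above all Health mice, with a log2 fold change of 1.95 (SE 0.75, adjusted p = 0.0990). Without BMT replicate 2, from which the fit also takes its spread, CDSCs against Health was 2.00 with an adjusted p of 0.00205. BMT against Health was 2.25 (SE 0.75, adjusted p = 0.160) and, without BMT replicate 2, 0.49 (adjusted p = 0.482).

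Complex III passes electrons from ubiquinol to cytochrome c, and mt-Cytb is its only mitochondrial gene, a core subunit that binds heme. It was at 4758, 5169 and 4319 CPM in the Health mice, 5007, 5371 and 5651 in the BMT mice and 8162, 7647 and 8162 in the CDSCs mice. CDSCs mice lay within 7647 to 8162 CPM, above all others. It rose 1.68-fold against Health (log2 fold change 0.75, SE 0.14, adjusted p = 0.00724) in all fits that left out 1 mouse, and the log2 fold change against BMT was 0.58 (SE 0.14, adjusted p = 0.0844).

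Complex IV, cytochrome c oxidase, reduces oxygen to water, and mt-Co1, mt-Co2 and mt-Co3 form its core. mt-Co1, which carries the heme and copper centre, was at 29255, 29081 and 21746 CPM in the Health mice, 23036, 25247 and 27202 in the BMT mice and 34046, 42965 and 38940.4 in the CDSCs mice. It was highest in the CDSCs mice, without overlap, and did not pass in either comparison: the log2 fold change was 0.53 (SE 0.19, adjusted p = 0.0796) against Health and 0.62 (SE 0.19, adjusted p = 0.130) against BMT. Against Health it passed without CDSCs replicate 1 (adjusted p = 0.0211), without TMM (0.0435), with at least 10 counts in every mouse (0.0475), with no filter (0.0247), with DESeq2 (0.00936) and with the likelihood ratio test (0.0477), and the last 3 of these also called it against BMT (0.0257, 0.0115 and 0.0487). The mt-Co1 row alone held 54.7% to 60.9% of mitochondrial counts in every mouse. mt-Co3, a subunit without metal centres and with a nuclear copy over nearly its whole length, was at 45.3, 50.2 and 39.9 CPM in the Health mice, 36.1, 42.6 and 45.2 in the BMT mice and 75.7, 75.7 and 96.0 in the CDSCs mice. The CDSCs mice were well above the others without overlap, and mt-Co3 rose both against BMT (log2 fold change 1.00, SE 0.15, adjusted p = 0.0236) and against Health (log2 fold change 0.87, SE 0.15, adjusted p = 0.00558). The call against BMT was lost without Health replicate 1, BMT replicate 1, BMT replicate 2 or CDSCs replicate 2, with adjusted p of 0.0228 to 0.136 over the 9 fits. mt-Co2, which takes up electrons from cytochrome c, was at 88.7, 93.4 and 82.8 CPM in the Health mice, 97.6, 93.6 and 74.99 in the BMT mice and 95.1, 117 and 123 in the CDSCs mice. The groups lay closer together, with 0.34 (SE 0.15, adjusted p = 0.138) against Health and 0.33 (SE 0.15, adjusted p = 0.260) against BMT, and the former passed without CDSCs replicate 1 (adjusted p = 0.0465).

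The ATP synthase makes ATP from the proton gradient, and mt-Atp6 and mt-Atp8 are subunits of its membrane part. The genes overlap by 43 bases. mt-Atp6 has a nuclear copy, whereas for mt-Atp8 only the length of the stretch between the copies of its neighbours was compared. mt-Atp8 had 2, 8 and 10 counts in the Health mice, 5, 6 and 9 in the BMT mice and 19, 31 and 27 in the CDSCs mice. The CDSCs mice stood above all others, though at few counts. As the row passed the filter on low counts only through the CDSCs mice, it had to differ, and with a filter of at least 10 counts in every mouse it was not tested. Its values are given as a description: CDSCs against Health was called (log2 fold change 1.88, SE 0.48, adjusted p = 0.0263), a call that was lost without Health replicate 1, Health replicate 2, CDSCs replicate 2 or CDSCs replicate 3 (adjusted p 0.0183 to 0.0878 over the 9 fits). Against BMT it was 1.97 (SE 0.48, adjusted p = 0.0871). mt-Atp6 was at 50.5, 72.3 and 78.2 CPM in the Health mice, 50.9, 37.3 and 44.96 in the BMT mice and 61.9, 98.5 and 83.1 in the CDSCs mice. CDSCs lay above BMT in every mouse, with 0.87 (SE 0.22, adjusted p = 0.0892), which passed without CDSCs replicate 1 (adjusted p = 0.0465), and overlapped with Health, and BMT against Health was -0.59 (SE 0.22, adjusted p = 0.196). Per count of mt-Atp6, mt-Atp8 had 0.0300 to 0.0370 counts in CDSCs mice, above the 0.00473 to 0.0191 of the other mice.

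The 7 protein-coding genes with a mean of at least 5000 counts, mt-Nd1, mt-Nd2, mt-Nd4, mt-Nd5, mt-Nd6, mt-Cytb and mt-Co1, can be set side by side. Of the 7, 2 passed between CDSCs and BMT, 6 between CDSCs and Health and 0 between BMT and Health, where 0.326%, 8.69% and 0.994% of all genes tested were called higher. Between CDSCs and BMT their fold lay at 1.495 to 1.77, between CDSCs and Health at 1.45 to 1.94, and between BMT and Health at 0.943 to 1.15. In each of the 7, the CDSCs mice did not overlap with BMT or with Health, as held for 22.5% and 34.2% of all genes tested. The 6 rows below that level spread more widely, at 0.811 to 3.91 between CDSCs and BMT and 1.21 to 3.86 between CDSCs and Health. All but mt-Atp8 have a nuclear copy over nearly their whole length. The 3.91 was mt-Atp8, which had to differ through the filter, and the 0.811 and 3.86 were mt-Nd4l. Median log2 fold changes of these 6 and of the 7 were 0.60 and 0.63 between CDSCs and BMT. Between CDSCs and Health they were 0.63 and 0.75.

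The rRNAs moved the other way against Health. mt-Rnr1, the 12S rRNA of the small ribosomal subunit (chrM:70-1024), was at 1967, 1953 and 1009 CPM in the Health mice, 685, 765 and 827 in the BMT mice and 781, 1080.0 and 878 in the CDSCs mice. Health replicates 1 and 2 were highest, and Health replicate 3 lay close to the highest CDSCs mouse, below which it fell. mt-Rnr1 was lower in BMT than in Health (log2 fold change -1.11, SE 0.25, adjusted p = 0.0453) and lower in CDSCs than in Health (log2 fold change -0.85, SE 0.24, adjusted p = 0.0396). The former call was kept without Health replicate 3, CDSCs replicate 1 or CDSCs replicate 3 and lost without each of the other 6 mice (adjusted p 0.00629 to 0.182), and the latter was kept only without Health replicate 3 (adjusted p 0.00509 to 0.135). mt-Rnr2, the 16S rRNA of the large subunit (chrM:1094-2675), was at 4769, 4532 and 2308 CPM in the Health mice, 1592, 1736 and 2191 in the BMT mice and 1512, 1599.9 and 1263 in the CDSCs mice. Every CDSCs mouse lay below every Health mouse, and mt-Rnr2 was lower in CDSCs than in Health (log2 fold change -1.41, SE 0.26, adjusted p = 0.00683) in all 9 fits that left out 1 mouse. BMT lay below Health as well, with -1.07 (SE 0.26, adjusted p = 0.0654), which passed without Health replicate 3 (-1.34, adjusted p = 0.00900) or without CDSCs replicate 1 (-1.07, adjusted p = 0.0395). It also passed with DESeq2 (adjusted p = 0.00501), the likelihood ratio test (0.00569) and no filter (1.22e-06). The mitochondrial total (0.0470) and only the 6 mice of the pair (0.0469) called it too. CDSCs and BMT overlapped in both rRNAs.

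Set against each other within a mouse, protein-coding and rRNA counts gave 3 separate groups. Protein-coding counts per rRNA count were 6.64, 6.99 and 10.7 in the Health mice, 17.04, 16.6 and 14.99 in the BMT mice and 26.1, 25.2 and 31.5 in the CDSCs mice. The means were 27.6 ± 3.42 (SD, n = 3) in CDSCs, 16.2 ± 1.08 in BMT and 8.12 ± 2.26 in Health mice, without overlap in any pair. The same order was seen for mt-Nd1 and mt-Rnr2, which are neighbours on the same strand with only the tRNA mt-Tl1 between them, at 0.640, 0.719 and 1.18 in the Health mice, 1.99, 1.81 and 1.63 in the BMT mice and 3.44, 3.36 and 5.51 in the CDSCs mice. The balance of the rRNAs also differed: mt-Rnr1 per mt-Rnr2 was 0.412, 0.431 and 0.437 in the Health mice, 0.430, 0.441 and 0.377 in the BMT mice and 0.516, 0.675 and 0.696 in the CDSCs mice, higher in every CDSCs mouse than in any other. These ratios were formed with the values in view and are given without a test. As the libraries were made by poly(A) capture, the counts of rRNA and tRNA stand for the part of these RNAs that passed the capture, and any difference in that step between mice was not tested.

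**Figure D4:**
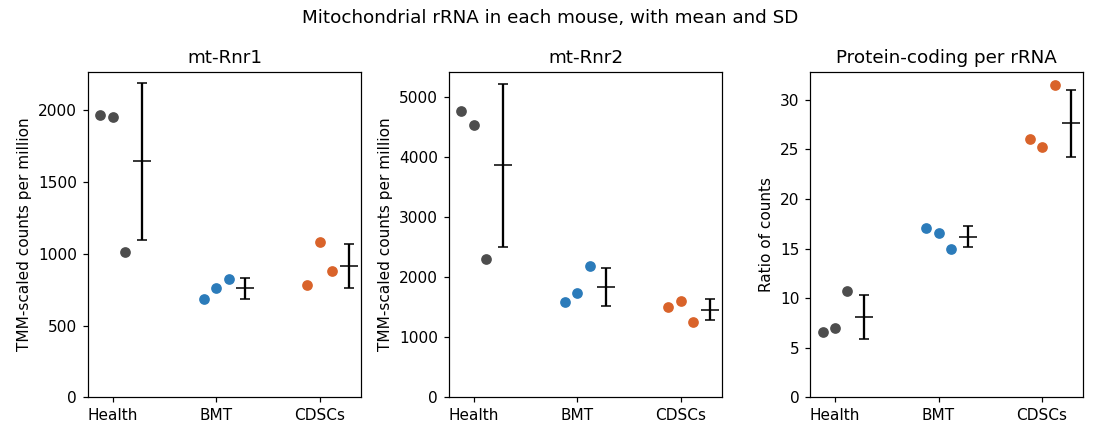
TMM-scaled CPM of mt-Rnr1 and mt-Rnr2 and the ratio of protein-coding to rRNA counts, with 1 point per mouse and the mean with SD beside it (n = 3 per group). The ratio runs from 6.64 to 10.7 in Health, 14.99 to 17.04 in BMT and 25.2 to 31.5 in CDSCs mice.

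tRNAs carry amino acids to the mitochondrial ribosome and mark the cutting points of the precursors. Their 22 rows together held 0.215% to 0.265% of mitochondrial counts. The rows of mt-Tf, mt-Ts1 and mt-Td were at 0 in all mice, where 3 counts would be 0.295 to 0.343 CPM. Of the 14 tRNA rows that did not pass the filter, the other 11 had at most 12 counts in a mouse. The most counted rows were mt-Tp, the proline tRNA, which is the last gene on the map before the control region (chrM:15356-15422, minus strand), and mt-Tn, the asparagine tRNA (chrM:5089-5159, minus strand). Their gene sequences, 67 and 71 bases, are given to show how small the targets of these counts are.
mt-Tp: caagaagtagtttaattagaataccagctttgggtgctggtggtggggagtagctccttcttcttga
mt-Tn: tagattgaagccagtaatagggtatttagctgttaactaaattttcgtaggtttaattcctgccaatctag

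The strand limit given for mt-Nd6 holds as well for mt-Tp, mt-Tn, mt-Tc, mt-Ty and mt-Te, which also stand on the minus strand. mt-Tp was at 88.5, 90.8 and 49.1 CPM in the Health mice, 53.0, 51.0 and 59.4 in the BMT mice and 93.3, 117 and 123 in the CDSCs mice. The CDSCs mice lay above all others, and BMT lay lowest apart from Health replicate 3. The log2 fold change of CDSCs was 1.03 (SE 0.22, adjusted p = 0.0603) against BMT and 0.54 (SE 0.22, adjusted p = 0.116) against Health, so it passed in neither. Against BMT it passed without Health replicate 3 (adjusted p = 0.0221) or without CDSCs replicate 1 (adjusted p = 0.0483). mt-Tn was at 25.7, 21.97 and 24.6 CPM in the Health mice, 24.1, 21 and 25.4 in the BMT mice and 27.6, 31.5 and 35.3 in the CDSCs mice, highest in CDSCs, with 0.42 (SE 0.15, adjusted p = 0.177) against BMT and 0.39 (SE 0.15, adjusted p = 0.104) against Health, of which the latter passed without CDSCs replicate 1 (adjusted p = 0.0483). mt-Tw, the tryptophan tRNA beside mt-Nd2, had 10, 14 and 8 counts in the Health mice, 24, 26 and 46 in the BMT mice and 18, 20 and 22 in the CDSCs mice. The BMT mice stood highest and Health lowest without overlap between any of the groups, and BMT against Health was 1.46 (SE 0.36, adjusted p = 0.0698), which passed without CDSCs replicate 1 (adjusted p = 0.0487). DESeq2 (adjusted p = 0.0252), the likelihood ratio test (0.00841) and the fit with no filter (0.0406) also called mt-Tw there.

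The other tRNA rows that passed the filter were sparse. mt-Tc, the cysteine tRNA, had 89, 80 and 79 counts in the Health mice, 102, 87 and 137 in the BMT mice and 113, 118 and 110 in the CDSCs mice. mt-Tl1, a leucine tRNA between mt-Rnr2 and mt-Nd1, had 20 to 41 counts per mouse, and mt-Ty, the tyrosine tRNA, had 11 to 47 counts, with BMT replicate 3 highest. mt-Th, the histidine tRNA, had 6 to 23 counts and mt-Te, the glutamate tRNA, 3 to 16 counts. The 3 BMT mice held the 3 highest counts of mt-Th. None of these 5 rows passed the edgeR test in any comparison, and none of the 5 had an unadjusted p under 0.05; DESeq2 called 0 of the 5 as well. On the minus strand, the 9 genes together held 1.33% to 1.77% of mitochondrial counts, most of it on mt-Nd6, and the groups overlapped.

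Within the mitochondrial total, the rRNA share separated all 3 groups. It was 13.1, 12.5 and 8.52% in Health, 5.53, 5.66 and 6.24% in BMT and 3.68, 3.80 and 3.06% in CDSCs mice. The mean of 3.52% ± 0.396 (SD, n = 3) in CDSCs was below the 5.81% ± 0.376 in BMT, and both were below the 11.4% ± 2.47 in Health. Each of the 3 differences had p = 0.1 in the exact two-sided permutation test, the smallest it can give, and an adjusted p of 0.42 over the 21 comparisons of 7 classes. Complex I held 20.4, 20.9 and 23.8% in Health, 25.7, 24.4 and 25.3% in BMT and 27.9, 23.7 and 28.8% in CDSCs mice. All BMT mice stood above all Health mice (difference 3.40 percentage points, exact permutation p = 0.1, adjusted p = 0.42), while CDSCs overlapped with both through CDSCs replicate 2. Complex III held 9.22, 9.95 and 11.1% in Health, 12.2, 12.2 and 11.7% in BMT and 13.1, 10.8 and 11.7% in CDSCs mice, again higher in BMT than in Health (1.91 percentage points, exact permutation p = 0.1, adjusted p = 0.42). With other totals, the difference of BMT from Health was 2.19 to 8.61 percentage points for complex I and 1.37 to 5.45 for complex III.

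Complex IV held the largest share in every mouse, at 56.5% ± 0.443 (SD, n = 3) in Health, 56.7% ± 0.657 in BMT and 57.4% ± 3.34 in CDSCs mice. CDSCs replicate 2, at 61.2%, stood apart from the other 2 CDSCs mice, at 55.0% and 56.0%. The exact permutation p was 1 for CDSCs against BMT and against Health and 0.5 for BMT against Health. The ATP synthase share, at 0.086% to 0.203%, and the tRNA share overlapped in all pairs. With the rRNA rows left out of the total, complex IV was lower than in Health, with a difference of -4.21 percentage points for CDSCs and -3.48 for BMT mice (exact permutation p = 0.2 and 0.1).

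Most subunits of the respiratory chain are nuclear-encoded. Of 124 nuclear genes on 8 lists (subunits of complexes I to IV and the ATP synthase, transcription and processing of mitochondrial RNA, replication of mitochondrial DNA, and regulators of biogenesis), all were found by name, but 28 were at 0 in all mice and 76 had a mean under 10 counts, so that only 50 were tested. CDSCs against BMT gave 0 higher and 0 lower, where 0.326% and 0.7% of all genes tested were called, so that a count of 0 among 50 is near the background. CDSCs against Health, with 8.69% and 8.28% of all genes called, gave 2 higher, Ndufb6 of complex I (0.50, SE 0.15, adjusted p = 0.0445) and Sdhb of complex II (0.80, SE 0.11, adjusted p = 0.00183), and 2 lower, Ndufv1 of complex I (-1.30, SE 0.32, adjusted p = 0.0232) and Dguok, which supplies nucleotides for mitochondrial DNA (-1.36, SE 0.41, adjusted p = 0.0472). BMT against Health gave 1 higher and 1 lower, beside 0.994% and 1.45% of all genes tested. The median log2 fold change of the 15 nuclear complex I genes tested was 0.21 in CDSCs against Health, beside 0.77 for the 7 mitochondrial ones. By the lowest unadjusted p of each list in CDSCs against Health, the genes that did not pass were Ndufa3 of complex I (0.49, adjusted p = 0.0543), Sdha (0.52, adjusted p = 0.102) and Sdhc (-0.10, adjusted p = 0.760) of complex II, and Cyc1 (-1.14, adjusted p = 0.0935) and Uqcr11 (-0.02, adjusted p = 0.939) of complex III. Cox6c (0.29, adjusted p = 0.0971), Cox5a (-0.49, adjusted p = 0.320) and Ndufa4 (0.12, adjusted p = 0.535) stood for complex IV, and Atp5a1 (-1.04, adjusted p = 0.114), Atp5d (0.20, adjusted p = 0.212) and Atp5j2 (-0.35, adjusted p = 0.398) for the ATP synthase. Mtpap, the poly(A) polymerase of mitochondria, was at 0.39 (adjusted p = 0.0663), Supv3l1, an RNA helicase, at 0.32 (adjusted p = 0.207), and Trmt10c, a part of mitochondrial RNase P, at -0.40 (adjusted p = 0.516). Tk2 was at 0.41 (adjusted p = 0.188) and Primpol at 1.77 (adjusted p = 0.219) among replication genes, and Nrf1 at -0.21 (adjusted p = 0.287), Gabpb1 at -0.61 (adjusted p = 0.288) and Yy1 at -0.45 (adjusted p = 0.422) among regulators of biogenesis. The limit on the names of nuclear rows given above holds for all of these values.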

How the data were processed

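Bone marrow RNA of 9 mice, 3 each of BMT, CDSCs and Health, was grouped by the labels. Per the study's methods and processing notes, the authors ran Trim Galore after quality checks (FastQC, MultiQC), mapped the reads to GRCm38 by HISAT2 and obtained the deposited counts per gene with featureCounts. The deposited TPM values were made by the authors from these counts and gene lengths. They add up to 901043 to 921784 per mouse and not to 1000000, and where the rest lay is not given in the sources used here. Shares of TPM are shares of these sums. Annotation, strand setting and the treatment of reads with several matches are not given in the sources used here. Libraries were made by poly(A) capture. The depth was 8741155 to 10181289 counts per mouse, and intervals and floors of 3 counts cover counting error only. The table held 0 columns of other samples.

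Counts of all 9 mice were fitted with edgeR 4.0.16 (R 4.3.3; filterByExpr, TMM, quasi-likelihood test, Benjamini-Hochberg adjustment over all genes tested), and shares were compared with exact two-sided permutation tests (scipy 1.17.1). The fits were tested on simulated data. All protein-coding and rRNA rows and each tRNA row tested are named, the other tRNA rows are summarised, and up to 3 genes per nuclear list with the lowest unadjusted p in CDSCs against Health are named. The members and lists were chosen with earlier results of these data known. Positions, pseudogenes and sequences are from GRCm38 with GENCODE release 21. Alternatives were DESeq2 1.42.0, a likelihood ratio test, other scalings and filters, pairs of groups alone, a replicate block, other totals for the shares, and leaving out each mouse. Leaving out members with a copy on chromosome 1 was chosen after seeing the data.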

Additional observations from a re-analysis of the deposited data

How the results depend on the processing

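Of the members called in CDSCs against BMT (3), DESeq2 and the edgeR likelihood ratio test each called 11, no filter on low counts 11, library size without TMM 1, and only the 6 mice of the pair 0. Over all genes these fits made 706, 730, 1260.0, 105 and 7 calls, against 129. Scaling to the mitochondrial total called 2 other members, mt-Rnr2 and mt-Tw, both lower, and left mt-Nd1 (0.22), mt-Nd2 (0.10) and mt-Co3 (0.40) above 0 and not called. In CDSCs against Health (10), that scaling called 2, both lower. Over all genes it made 4274 calls in CDSCs against BMT and 4511 in CDSCs against Health, against 129 and 2134 with TMM. In BMT against Health (1), DESeq2 called 3, the likelihood ratio test 4, library size without TMM 0, the mitochondrial total 2, no filter 4 and only the 6 mice of the pair 2. Over all genes these fits made 709, 699, 292, 198, 948 and 807 calls, against 307. The median log2 fold change of CDSCs against BMT was 0.24 with no filter, where more tRNA rows were tested. The mitochondrial total moves the median of all genes to -0.58 in CDSCs against BMT and -0.54 in CDSCs against Health. Under it, the log2 fold changes of mt-Tn (-0.18), mt-Co2 (-0.29) and mt-Cytb (-0.0146) were below 0 in CDSCs against BMT. In CDSCs against Health, those of mt-Tn (-0.15) and mt-Co2 (-0.19) were below 0. All values under this scaling, the lower calls of mt-Rnr2 and mt-Tw included, are relative to the mitochondrial total and not to all counts. Leaving out each mouse in turn gave 0 to 5 calls in CDSCs against BMT, 8 to 12 in CDSCs against Health and 0 to 3 in BMT against Health. Over all genes the same fits made 2 to 491, 1071 to 2640 and 102 to 681 calls. The cause was not tested.

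Each number stands for another animal in each group, and the deviations of same-numbered mice correlated at -0.34 to 0.22 over 9 pairs, against -0.42 to 0.43 over 18 pairs with different numbers. With a replicate block, 0 members were called in CDSCs against BMT, 9 in CDSCs against Health and 0 in BMT against Health, with 22, 1507 and 197 calls over all genes, against 129, 2134 and 307 without it.

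The mitochondrial share of BMT minus Health was -0.00712 percentage points without mt-Co1, the mitochondrial row with the most counts, -0.0243 without members with a copy on chromosome 1, and -0.294 to 0.178 leaving out each mouse. Within the mitochondrial total, leaving out members with a copy turned complex III of CDSCs minus BMT (0.340), ATP synthase of CDSCs minus Health (0.00659) and tRNA of CDSCs minus Health (0.0182). Leaving out the rRNA rows turned complex IV, to -0.732 for CDSCs minus BMT, -4.21 for CDSCs minus Health and -3.48 for BMT minus Health. Shares of TPM turned complex IV (-0.0469) and minus-strand genes (-0.0935) of BMT minus Health. Leaving out each mouse gave ranges across 0 for complex III of CDSCs minus BMT (-0.736 to 0.395), complex IV of CDSCs minus BMT (-1.23 to 1.89), of CDSCs minus Health (-0.949 to 2.18) and of BMT minus Health (-0.0887 to 0.540), ATP synthase of CDSCs minus Health (-0.0488 to 0.00381), tRNA of CDSCs minus BMT (-0.00295 to 0.0180) and of CDSCs minus Health (-0.0123 to 0.00451), and minus-strand genes of CDSCs minus BMT (-0.0304 to 0.171). Leaving out each mouse, the rRNA share kept its direction, at -2.44 to -2.07 for CDSCs minus BMT, -9.25 to -6.98 for CDSCs minus Health and -6.96 to -4.69 for BMT minus Health; without members with a copy, it was -5.74, -19.8 and -14.0. The mitochondrial share of CDSCs stayed higher leaving out each mouse, by 2.06 to 2.52 percentage points than BMT and 1.94 to 2.53 than Health. As shares of TPM the differences were 4.14 and 4.32, without mt-Co1 0.920 and 0.913, and without members with a copy 0.792 and 0.768.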
